A study of Mus musculus with 6 samples.

Results

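The CLEC genes, which encode C-type lectin receptors and related proteins, were followed in cultured mouse dendritic cells kept with or without DB2313. They were taken as all protein-coding genes of the count table whose symbol begins with Clec and a digit, which gave 30 of 54532 annotated genes. Dendritic cells take up antigen and show it to T cells, and DB2313 is a small molecule that the study used to inhibit Spi1 (PU.1), a transcription factor of macrophages and dendritic cells. The control group held 3 libraries of cells labelled as control, and the DB2313 group held 3 libraries of cells treated with the compound. The cells of both groups were grown in the same serum-containing medium, and the labels give no strain, age, dose or time of treatment. The study's text speaks of macrophages where the labels speak of dendritic cells, and nothing says whether the libraries came from separate cultures or mice, so that the errors below measure the spread between libraries, which may be technical. Total counts ranged from 16146743 to 19764677 per library. In the cells as labelled, all 13 markers of dendritic cells and all 13 of macrophages and monocytes listed for this work were expressed well enough to be tested, as were all 12 of neutrophils. In bulk RNA, fewer cells of a type and less RNA per cell cannot be told apart.

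C-type lectin receptors carry a fold that in many members binds sugars on microbes or on the body's own glycoproteins. On myeloid cells, receptors of the dectin-1 and dectin-2 groups pass signals through the kinase Syk and the adaptor Card9, either by a tyrosine motif of their own or by the adaptor chains Fcer1g (FcR gamma) and Tyrobp (DAP12). Others carry an inhibitory tyrosine motif that recruits phosphatases, deliver cargo for antigen presentation, or act as ligands of NKR-P1 receptors on natural killer cells. In the mouse most of these genes lie in clusters on chromosome 6, where 22 of the 30 genes were located in the files (GRCm38 coordinates).

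DB2313 changed a large part of the expressed CLEC genes, and in opposite directions. Of the 30 genes, 21 had enough reads to be tested. With DB2313, 7 of them were higher and 6 lower at an adjusted p under 0.05 (edgeR quasi-likelihood test), and 8 did not pass. These were 33.3% and 28.6% of the CLEC genes tested, whereas 4.66% of all 14174 genes tested were called higher and 5.94% lower. DB2313 replicates 1 and 3 were the least alike of any replicate pair (chi-square per degree of freedom 12.7, against 3.81 to 6.52 for the others). Over all genes, 1503 were called with every library, 2408 without DB2313 replicate 3, 1711 without DB2313 replicate 1, 739 without DB2313 replicate 2 and 796 to 854 without a control library, while the number of CLEC genes called stayed at 11 to 14. In CPM, the read count scaled to a common library size, the groups were apart for 15 of the 21 genes, with no library of one inside the range of the other, as they were for 27.4% of all genes tested. The median log2 fold change (DB2313 against control) was 0.22 over the 21 genes and 8.2e-04 over all genes, and the median of its absolute size was 0.57 and 0.16. Of the 13 changed genes, 4 changed at least 2-fold, namely Clec9a, Clec2l and Clec10a upwards and Clec4b1 downwards. All 7 higher genes passed in each of the 18 other fits that were tried, and 4 of the 6 lower genes did, Clec4a1 and Clec16a being the exceptions.

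**Figure D1:**
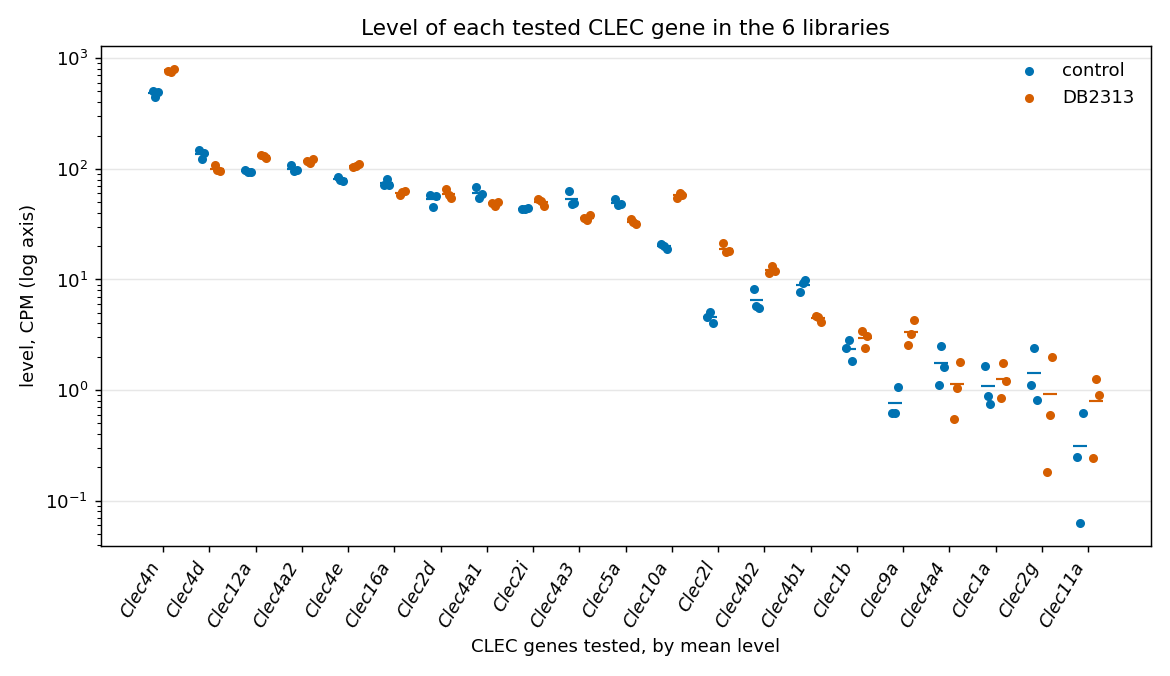
Level of each tested CLEC gene in CPM on a log axis, with 3 control libraries (blue points), 3 DB2313 libraries (orange points) and a bar at the mean of each group. Clec4n lay above all others in CPM, and the groups were apart for 15 of the 21 genes.

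Summed over all 30 genes, the CLEC level was 1209 to 1355 CPM in the control libraries and 1587 to 1646 CPM in the DB2313 libraries. Clec4n alone made up 37.0% to 38.7% of CLEC counts in control and 47.2% to 48.9% with DB2313. Without Clec4n the sums were 761 to 844 CPM and 837 to 859 CPM, and the groups overlapped. Per kilobase of gene length, which allows genes to be compared, Clec4n stood at 341 ± 23.1 CPM per kb in control (SD, n = 3, as for the other levels below). Clec4d followed at 85.6 ± 7.46, and then came Clec2d at 43.8 ± 5.53, Clec4a3 at 40.4 ± 6.28, Clec4a1 at 39.2 ± 4.45 and Clec4a2 at 34.3 ± 2.53 CPM per kb. From Clec2d to Clec4a2, each gene overlapped its neighbour in this order between libraries. With DB2313, Clec4n stood at 545 ± 19.5 and Clec4d at 62.5 ± 3.93 CPM per kb, and Clec10a moved from 6.87 ± 0.40 to 19.9 ± 0.94 CPM per kb.

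**Figure D2:**
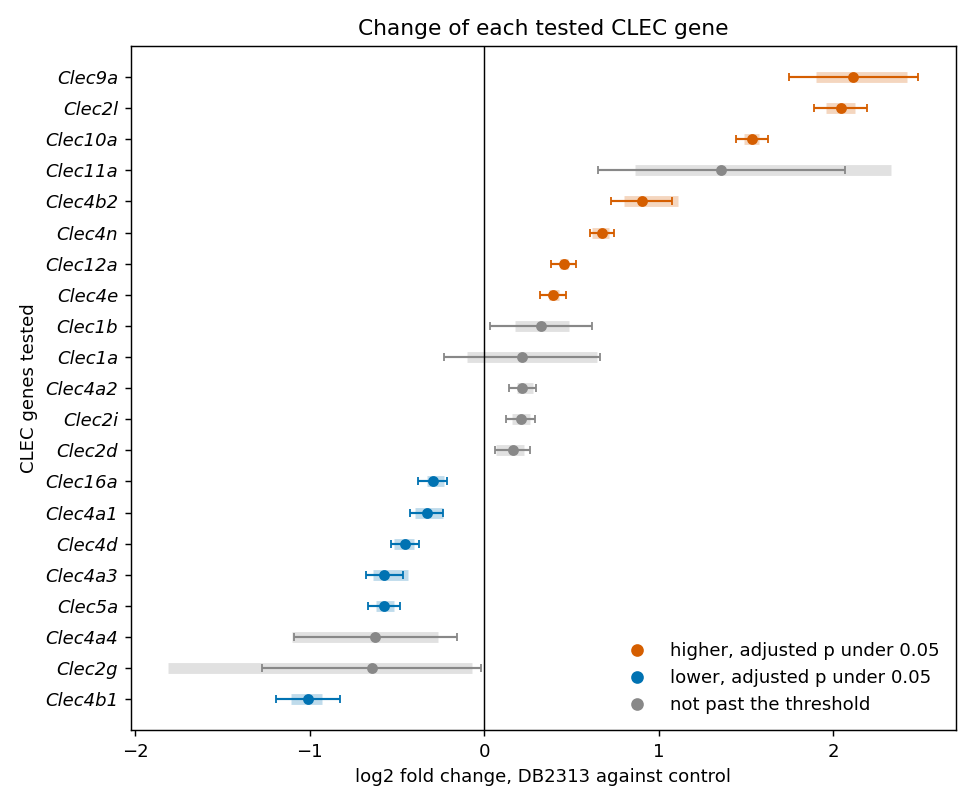
Log2 fold change (DB2313 against control) of the 21 tested CLEC genes, with points at the fitted value, whiskers for its SE and pale bars for its range over the 18 other fits. The 7 higher genes (orange) and 6 lower genes (blue) kept their side of 0 in every fit, and Clec1a is the only gene whose pale bar crosses 0.

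The dectin-2 cluster of chromosome 6 held 9 CLEC genes, all tested, of which 3 were higher and 4 lower. Its members couple to Fcer1g or, for some of the DCIR genes, carry an inhibitory motif. Clec4n (ENSMUSG00000023349, chr6:123229843-123247021, plus strand) encodes dectin-2, a receptor for fungal mannans. Control replicates 1 to 3 held 510, 448 and 495 CPM, and DB2313 replicates 1 to 3 held 768, 750 and 804 CPM. Every DB2313 library lay above every control library. The log2 fold change was 0.68 ± 0.07 (SE), a 1.60-fold rise, with an edgeR adjusted p of 2.2e-05.

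Clec4d and Clec4e are the next genes in the cluster. Clec4d (MCL, chr6:123262111-123275265, plus strand) encodes a receptor that pairs with dectin-2 or Mincle, and Clec4e (chr6:123281789-123289870, minus strand) encodes Mincle, a receptor for mycobacterial cord factor. Clec4d had 147, 124 and 140 CPM in the control libraries and 107, 96.9 and 95.8 CPM in the DB2313 libraries. It fell by 0.45 ± 0.08 on the log2 scale (SE, edgeR adjusted p = 0.00223), and the groups did not overlap. Clec4e went the other way, from 84.5, 79.8 and 78.3 CPM to 103, 106 and 110 CPM, again without overlap. It rose by 0.40 ± 0.07 on the log2 scale (SE, edgeR adjusted p = 0.00264). The number of Clec4n reads per Clec4d read, a value within each library, was 3.48 to 3.62 in control and 7.16 to 8.39 with DB2313. That of Clec4e per Clec4d was 0.558 to 0.646 in control and 0.963 to 1.14 with DB2313. In both pairs each gene already differed between the groups, so the choice of pairs fixed the direction, and the ratios are given as a description.

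The DCAR genes, encoding activating receptors of the same cluster, also parted. Clec4b1 (DCAR, chr6:123049962-123071555) had 7.69, 9.35 and 9.91 CPM in control and 4.68, 4.61 and 4.09 CPM with DB2313. Its log2 fold change was -1.01 ± 0.18 (SE), and edgeR gave an adjusted p of 0.00225. Clec4b2 (chr6:123172893-123204671), its near relative, rose from 8.24, 5.77 and 5.52 CPM to 11.4, 13.2 and 12.0 CPM, by 0.90 ± 0.18 on the log2 scale (SE, edgeR adjusted p = 0.00354). The groups were apart for both genes, and the Clec4b2 reads per Clec4b1 read were 0.557 to 1.07 in control and 2.43 to 2.93 with DB2313. These values rest on 68 to 158 reads per library for Clec4b1 and 88 to 264 for Clec4b2. Here too the choice of the pair fixed the direction of the ratio, which is given as a description. Clec4b1 shares a stretch of 436 bp at 96.3% identity with Clec4a2, which in turn shares 301 bp at 95.3% with Clec4a4. Reads from such stretches could have been split between the genes or dropped.

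The 4 DCIR genes, related to the dendritic cell immunoreceptor, differed among themselves. Clec4a3 (chr6:122952515-122969875) had 63.3, 48.4 and 49.4 CPM in control and 35.6, 34.6 and 38.3 CPM with DB2313, a log2 fold change of -0.57 ± 0.11 (SE, edgeR adjusted p = 0.0027). Its neighbour Clec4a1 (chr6:122921848-122934619) had 68.5, 54.8 and 59.7 CPM and then 49.3, 46.0 and 50.5 CPM. It fell by 0.33 ± 0.09 on the log2 scale (SE), with an edgeR adjusted p of 0.0347. That call was lost without control replicate 1 (adjusted p 0.196), without control replicate 3 (0.0905) and without DB2313 replicate 2 (0.182), and its fitted change stayed negative in each. Clec4a2 (DCIR, with an inhibitory motif), the highest of these genes per length with DB2313 (40.0 ± 1.66 CPM per kb), had 109, 95.2 and 97.2 CPM in control and 117, 112 and 122 CPM with DB2313. Its libraries did not overlap, yet its log2 fold change of 0.22 ± 0.08 (SE, 95% interval 0.054 to 0.38) did not pass (edgeR adjusted p = 0.0887). The Clec4a2 reads per Clec4a3 read were 1.72 to 1.97 in control and 3.18 to 3.28 with DB2313. Both genes already had groups apart, in opposite directions, so the choice of this pair fixed the direction of the ratio. Clec4a4 (DCIR2) was low, with 9 to 40 reads per library, overlapping groups and an edgeR adjusted p of 0.472.

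**Figure D3:**
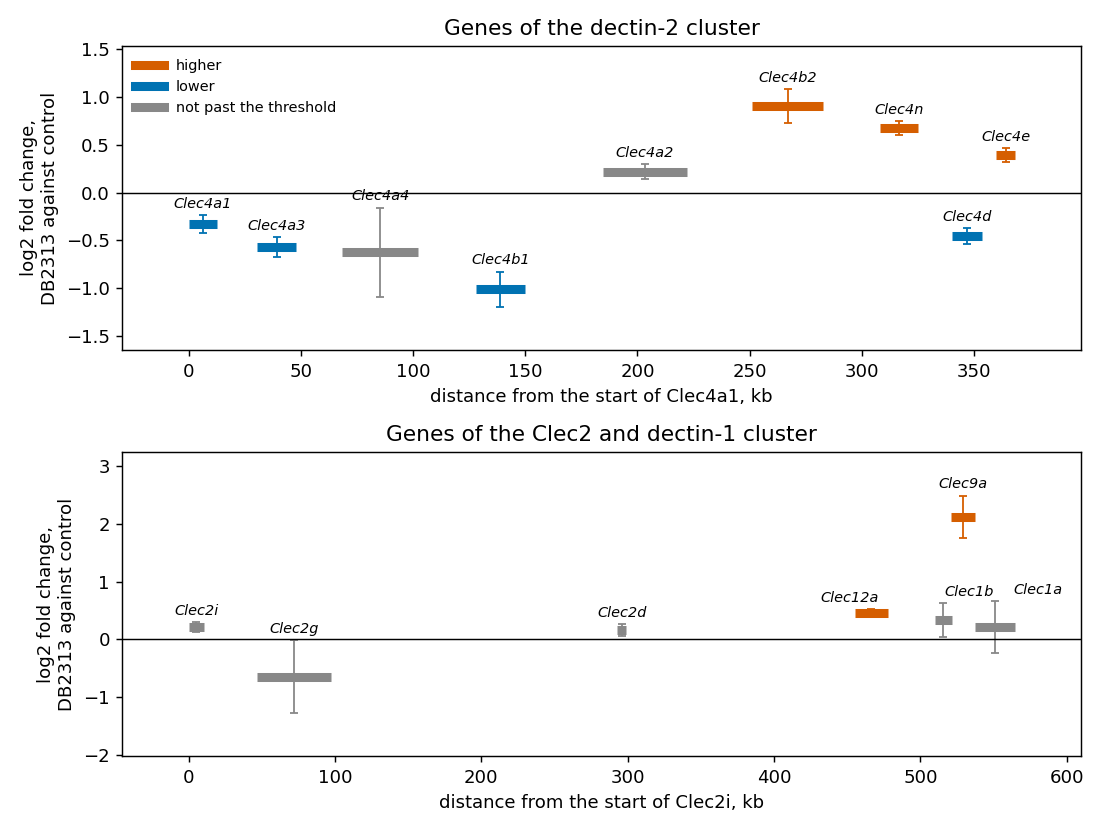
Log2 fold change (DB2313 against control, whiskers SE) of tested genes of the dectin-2 cluster (upper panel) and of the Clec2 and dectin-1 cluster (lower panel) against distance in kb along chromosome 6, each bar spanning a gene (orange higher, blue lower, grey not past the threshold). In the dectin-2 cluster the genes from Clec4a1 to Clec4b1 had negative values and those from Clec4a2 to Clec4e positive ones, except Clec4d. Clec4a4 and Clec4a2 were not past the threshold.

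Along this cluster, the genes on the side of Clec4a1 (Clec4a1, Clec4a3, Clec4a4 and Clec4b1) had negative fold changes, and those from Clec4a2 onwards had positive ones apart from Clec4d. Clec4a4 and Clec4a2 did not pass (edgeR adjusted p 0.472 and 0.0887). The split was read from these values and was not tested. To show what the neighbours hold upstream of their starts, the windows of 6 changed genes of the cluster are printed from 250 bases before the RefSeq start to 20 after it (GRCm38.p6, 5′ to 3′). Windows were taken only if they held the letters GAGGAA, so their presence in each was fixed by that choice. Clec4a2, which did not pass, had a window without these letters, and it is not printed. For Clec4n, a higher gene of the cluster, and for Clec4a4 no window was at hand, so whether theirs hold the letters is not known. Capitals mark GAGGAA, the PU box that Spi1 is known to bind, on either strand (TTCCTC on the opposite one), and in Clec4a1 also the composite element of Spi1 with an IRF factor, searched on both strands as GGAA and GAAA set 2 bases apart, which does not overlap a PU box there.
Clec4a1, chr6:122921598-122921867, plus strand: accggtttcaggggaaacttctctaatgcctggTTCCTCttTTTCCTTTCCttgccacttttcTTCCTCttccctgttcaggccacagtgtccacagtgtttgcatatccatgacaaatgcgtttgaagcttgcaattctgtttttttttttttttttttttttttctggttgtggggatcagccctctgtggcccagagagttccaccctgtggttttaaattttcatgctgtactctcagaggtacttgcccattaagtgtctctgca
Clec4a3, chr6:122952394-122952663, plus strand: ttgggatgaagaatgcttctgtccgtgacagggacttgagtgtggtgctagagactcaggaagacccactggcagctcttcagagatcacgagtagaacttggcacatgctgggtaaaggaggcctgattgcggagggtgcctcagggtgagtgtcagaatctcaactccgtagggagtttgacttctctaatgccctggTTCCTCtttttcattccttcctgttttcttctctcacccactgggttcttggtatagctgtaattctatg
Clec4b1, chr6:123049712-123049981, plus strand: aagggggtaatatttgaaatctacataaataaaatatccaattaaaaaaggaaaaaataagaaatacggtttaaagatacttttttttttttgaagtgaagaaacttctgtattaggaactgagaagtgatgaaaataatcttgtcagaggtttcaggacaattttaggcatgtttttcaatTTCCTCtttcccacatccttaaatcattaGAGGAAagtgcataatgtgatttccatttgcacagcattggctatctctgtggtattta
Clec4b2, chr6:123172773-123173042, plus strand: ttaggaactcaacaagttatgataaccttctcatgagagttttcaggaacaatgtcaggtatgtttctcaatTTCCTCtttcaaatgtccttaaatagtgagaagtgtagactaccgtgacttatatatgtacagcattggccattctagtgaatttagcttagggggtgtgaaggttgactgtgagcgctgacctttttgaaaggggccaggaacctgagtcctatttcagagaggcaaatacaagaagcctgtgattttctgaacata
Clec4d, chr6:123261857-123262126, plus strand: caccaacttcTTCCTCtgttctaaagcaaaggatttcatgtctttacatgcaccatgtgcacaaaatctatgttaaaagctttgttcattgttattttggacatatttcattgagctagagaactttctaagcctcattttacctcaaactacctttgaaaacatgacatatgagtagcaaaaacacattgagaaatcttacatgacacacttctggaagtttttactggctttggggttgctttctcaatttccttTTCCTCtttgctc
Clec4e, chr6:123289852-123290121, minus strand: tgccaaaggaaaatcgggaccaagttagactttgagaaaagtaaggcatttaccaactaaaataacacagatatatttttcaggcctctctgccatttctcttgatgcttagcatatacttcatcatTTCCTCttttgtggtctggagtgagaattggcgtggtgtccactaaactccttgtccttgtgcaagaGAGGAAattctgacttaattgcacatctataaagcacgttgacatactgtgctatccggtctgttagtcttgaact
The windows of Clec4a1 and Clec4a3, both lower genes, shared the 17 bases cctggTTCCTCttTTTC (capitals as in Clec4a1) around the PU box, which began 217 bases before the start of Clec4a1 and 50 before that of Clec4a3. Those of Clec4b1 (lower) and Clec4b2 (higher) shared the 15 bases tcaatTTCCTCtttc, with the box 68 and 178 bases before their starts. The RefSeq start of Clec4b2 lay 130 bases from the start in the count table. RefSeq gives 2 windows for Clec4a3, and the one printed lay 129 bases from that start, whereas the window at the start itself held no PU box.

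RefSeq windows, counted over their full 300 bases, were at hand for 17 of the 21 tested genes. The tested genes without one were Clec4n and Clec10a, both higher, and Clec4a4 and Clec1a, which did not pass. GAGGAA was found in 11 of the 17 (64.7%), against 31.1% of the 10236 tested genes with a window and 31.3% of all 27025. A gene counted here if any of its windows held the letters. They were present for 4 of 5 higher genes, 6 of 6 lower genes and 1 of 6 genes that did not pass. The same split was not counted over all genes, so no background share stands beside it. Among those that did not pass, Clec1b, Clec2g and Clec11a had at most 56, 38 and 25 reads per library. Several windows belong to neighbouring relatives with shared stretches, so these genes are not independent counts. A link between the letters and the calls was not tested. With only the window nearest to the start in the count table they were present for 10 of the 17, and for 5 of 6 lower genes, since Clec4a3 dropped out. The longer form GAGGAAGT, which contains it, was in none of the 17 and in 4.16% of the tested genes. The composite element was found in 2 of the 17, Clec4a1 and Clec2i, against 2.89% of tested genes. These are matches of letters in a short window and were not tested as binding sites. The starts used for Clec12a and Clec4a2 lay 7553 and 16262 bases from the starts in the count table.

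Outside the dectin-2 cluster the largest rises were those of Clec9a, Clec2l and Clec10a. Clec10a (MGL1, ENSMUSG00000000318, chr11:70156197-70170834, plus strand) encodes a galactose-binding receptor of macrophages and dendritic cells. It had 20.97, 20.07 and 18.69 CPM in control and 54.9, 60.3 and 57.7 CPM with DB2313. All DB2313 libraries were far above all control libraries, and the log2 fold change was 1.53 ± 0.09 (SE), a 2.90-fold rise (edgeR adjusted p = 1.2e-07). Clec10a shares 727 bp at 96.4% identity with Mgl2, the neighbouring gene for a second galactose-type lectin, so that reads could be split between them. Mgl2 rose too, from 113 ± 6.09 to 215 ± 27.9 CPM, by 0.92 ± 0.09 on the log2 scale (SE, edgeR adjusted p = 1.4e-05). The other endocytic receptors listed with it, Clec4f of Kupffer cells and Clec4g of liver sinusoids, had at most 1 and 2 reads per library and were not tested.

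Clec2l (ENSMUSG00000079598, chr6:38663069-38680864, plus strand) is a relative of the NKR-P1 ligands described from brain. Its level was 4.61, 5.08 and 4.08 CPM in the control libraries and 21.2, 17.7 and 18.0 CPM in the DB2313 libraries. The groups lay far apart, with 65 to 81 reads per control library and 299 to 353 per DB2313 library. The log2 fold change was 2.04 ± 0.15 (SE), a 4.12-fold rise, with an edgeR adjusted p of 9.8e-07. Of the 6 genes of this subfamily, 4 were tested and only Clec2l passed. Clec2d (Clr-b, the ligand of NKR-P1B) had 57.8, 45.5 and 56.3 CPM in control and 65.5, 58.4 and 54.8 CPM with DB2313. The groups overlapped, and the log2 fold change of 0.16 had a 95% interval from -0.054 to 0.38. Clec2i (Clr-g) had 43.0, 43.2 and 44.0 CPM and then 53.6, 50.9 and 46.2 CPM. These groups did not overlap. The rise of 0.21 ± 0.09 on the log2 scale (SE) missed the threshold at an edgeR adjusted p of 0.149, which became 0.0454 without DB2313 replicate 3 (0.27). Clec2i overlaps BC035044 on the opposite strand over 3539 bp, and the strandedness of the libraries was not stated. Clec2g was low, with 3 to 38 reads, and it overlaps the antisense gene Gm15987, which had 137 to 185 reads. Clec2h and Clec2e had no read in any library.

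Of the dectin-1 cluster, 4 genes were tested, and Clec12a and Clec9a were higher. Clec12a (MICL, chr6:129342691-129365303, plus strand) encodes an inhibitory receptor that recognises uric acid crystals. Its libraries read 97.8, 93.3 and 93.5 CPM in control and 134, 131 and 126 CPM with DB2313, with no overlap. It rose by 0.46 ± 0.07 on the log2 scale (SE, edgeR adjusted p = 7.2e-04).

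Clec9a (DNGR-1, ENSMUSG00000046080, chr6:129408862-129424763, plus strand) encodes the receptor for actin filaments of dead cells and is a marker of conventional type 1 dendritic cells. It was rare, with 10, 10 and 17 reads in the control libraries and 42, 64 and 72 in the DB2313 libraries, or 0.615, 0.627 and 1.07 CPM against 2.55, 3.21 and 4.33 CPM. The groups did not overlap, and the log2 fold change was 2.12 ± 0.37 (SE, 95% interval 1.33 to 2.91, edgeR adjusted p = 0.0017). Of 13 other marker genes of type 1 dendritic cells 11 were tested, none was higher and 1, Batf3, was lower (-0.57 ± 0.12, SE, edgeR adjusted p = 0.00709, or 0.0563 without control replicate 1). Over all genes tested, 4.66% were called higher and 5.94% lower, and in a list this short the counts lay near those shares. The summed level of these markers was 802 to 823 CPM in control and 716 to 741 CPM with DB2313. Most of that sum came from Irf8, Naaa, Wdfy4 and Batf3 (273, 234, 172 and 106 CPM in control), of which only Batf3 was called. The sum therefore says little about the rarer markers. The chemokine receptor gene Xcr1 had 1.04 ± 0.24 CPM in control and 0.996 ± 0.082 CPM with DB2313 (edgeR adjusted p 0.956). Batf3 and Xcr1 were picked with their values known. The first 474 bp of Clec9a overlap the end of Clec1b on the same strand, and the transcripts share 185 bp. Clec1b (CLEC-2, the platelet receptor for podoplanin) had 29 to 56 reads per library, overlapping groups and a log2 fold change of 0.33 (95% interval -0.30 to 0.95). Megakaryocyte and platelet markers were present, with 9 of 10 tested and none changed. Clec1a (MelLec, a receptor for fungal melanin) had 12 to 35 reads and an edgeR adjusted p of 0.824, and Clec12b had 0 to 7 reads.

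Clec5a (MDL-1, ENSMUSG00000029915, chr6:40574894-40585821, minus strand), the member that signals through Tyrobp, was lower. It had 53.4, 46.9 and 48.4 CPM in control and 35.3, 33.0 and 31.6 CPM with DB2313. No library crossed over, and it fell by 0.57 ± 0.09 on the log2 scale (SE, edgeR adjusted p = 8.0e-04). Clec16a (chr16:10545339-10744878, plus strand), an endosomal protein of mitophagy that is not a sugar receptor, was slightly lower. It had 71.4, 80.5 and 71.9 CPM in control and 58.1, 61.6 and 62.8 CPM with DB2313, a log2 fold change of -0.29 ± 0.08 (SE, edgeR adjusted p = 0.0302). Leaving out a library ended this call in 4 of 6 cases, with an adjusted p of 0.0645, 0.190 and 0.0738 without control replicates 1, 2 and 3 and of 0.114 without DB2313 replicate 2. Clec11a, a secreted growth factor of bone marrow, had 1 to 25 reads and did not pass (edgeR adjusted p = 0.270).

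The remaining members were at or near 0. Clec18a, Clec3b (tetranectin), Clec4g and Clec4f together with Clec12b had between 1 and 10 reads in all 6 libraries summed. Clec14a of endothelial cells, Clec3a of cartilage, Clec2h and Clec2e had no read, which allows a level of up to 0.151 to 0.188 CPM per library (3 counts). The reads carry no molecular identifiers, so such limits cover counting error only.

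Markers of other cells moved alongside several of these receptors, many of which neutrophils, monocytes and macrophages also express. For comparison, 4.66% of all genes tested were called higher and 5.94% lower. Of 12 neutrophil markers, 4 were higher and none lower, with a summed level of 4871 to 5363 CPM in control and 5271 to 6593 CPM with DB2313. These ranges overlapped. Most of the sum was Ngp, S100a9, S100a8 and Ltf (1198, 1158, 1055 and 839 CPM in control), which did not pass (edgeR adjusted p 0.959, 0.297, 0.471 and 0.0827). Among the 4 higher markers, Mmp8 was the most abundant (324 ± 37.7 and 636 ± 61.4 CPM). Of 13 macrophage and monocyte markers, 1 was higher and 6 lower, with sums of 10812 to 12126 and 9797 to 10709 CPM. Most of these sums was Lyz2 (8751 ± 699 and 7887 ± 348 CPM), which did not pass (edgeR adjusted p = 0.218). Of 13 dendritic cell markers, none was higher and 2 were lower, with sums of 14613 to 14968 and 12446 to 14502 CPM. The largest part here was Cd74 (6557 ± 87.7 and 5999 ± 608 CPM), which did not pass (edgeR adjusted p = 0.326). No marker in these lists had 0 reads throughout. Of 10 markers of mast cells and basophils, 9 were tested, 2 were higher and none lower, with sums of 2521 to 2721 and 2570 to 3079 CPM. None of the tested markers of plasmacytoid dendritic cells (6), T and NK cells (11), B cells (3) or endothelial cells (6) changed. Summed markers of fibroblasts stayed at 0.961 to 1.70 CPM in all libraries, and 3 of the 8 had no read. The part of these markers in the CLEC values was not tested.

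Downstream genes were examined with a list of the receptors' adaptors, kinases, transcription factors and cytokines. Of 50 such genes 48 were tested, 1 was higher and 9 were lower, with a median log2 fold change of -0.071 against 8.2e-04 over all genes. Of all genes tested, 4.66% were called higher and 5.94% lower. The number of lower genes ranged from 3 (without control replicate 2) to 15 (without DB2313 replicate 3) when 1 library was left out. It was 4 without DB2313 replicate 2 and 5 without control replicate 1 or 3. Over all genes, 1503 were called in the main fit. That total was 796 without control replicate 2, 739 without DB2313 replicate 2 and 2408 without DB2313 replicate 3. In the list, the lower genes with the largest changes were Il1b, a proinflammatory cytokine (35.8 ± 6.48 CPM in control, 22.3 ± 2.57 with DB2313), and Egr2, a transcription factor induced by such receptors (27.2 ± 3.68 and 17.1 ± 1.14 CPM). Blnk, a Syk adaptor, went from 27.7 ± 2.01 to 19.5 ± 2.82 CPM. The NF-kB subunits Relb and Rel fell by 0.38 ± 0.08 and 0.36 ± 0.08 on the log2 scale (SE), and the kinase Src fell by 0.32 ± 0.08. The edgeR adjusted p of these 6 genes ranged from 0.00204 for Egr2 to 0.0205 for Src. Without control replicate 1, 2 or 3 or DB2313 replicate 2, that of Src was 0.0667, 0.0787, 0.0851 and 0.134, and with the replicate numbers as a block it was 0.0578. That of Blnk was 0.0640 without control replicate 1, 0.0742 without control replicate 2 and 0.0832 without DB2313 replicate 2, and that of Rel was 0.0565 without control replicate 2. The single higher gene was the adaptor Tyrobp (0.21 ± 0.06, SE, edgeR adjusted p = 0.0494). It was picked with its values known, and its call was lost without any control library (0.163, 0.157 and 0.140 for replicates 1 to 3), without DB2313 replicate 2 (0.239), with an offset for gene length (0.348), with the replicate numbers as a block (0.166) and with both (0.471).

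Of the core of the pathway, Fcer1g, Syk and Card9 were measured without a call, whereas the adaptor Tyrobp had the call given above. Fcer1g, the adaptor of the dectin-2 receptors, had means of 396 ± 20.8 and 452 ± 58.8 CPM in control and DB2313 libraries (log2 fold change 0.19, 95% interval 0.0055 to 0.38, edgeR adjusted p = 0.199, or 0.0038 without DB2313 replicate 3). Syk stood at 677 ± 23.6 and 660 ± 46.5 CPM (95% interval -0.19 to 0.11), and Card9 at 81.5 ± 12.3 and 92.5 ± 3.64 CPM (95% interval -0.027 to 0.39). These 3 genes were chosen for their role.

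Among 58 C-type lectin genes of other names, 29 were tested, 5 were higher and 4 lower, with a median log2 fold change of 0.060. The shares called over all genes tested were 4.66% higher and 5.94% lower. Besides Mgl2, Asgr2, a subunit of the asialoglycoprotein receptor, rose by 1.05 ± 0.17 (SE, edgeR adjusted p = 9.7e-04). Lower were Klrk1 (NKG2D, -0.92 ± 0.11, adjusted p 9.5e-05), Ly75 (DEC-205, an antigen uptake receptor, -0.76 ± 0.09, 5.7e-05) and Mrc1 (the macrophage mannose receptor, -0.71 ± 0.14, 0.00325). Ly75 went from 229 ± 28.7 to 135 ± 7.45 CPM and Mrc1 from 130 ± 26.9 to 79.4 ± 14.2 CPM. The genes above were taken at a mean of at least 10 CPM. Below that level, Klrb1b fell further (-1.59 ± 0.43, SE, edgeR adjusted p = 0.0268, 9 to 39 reads per library). Klrg2, also below it, rose by 1.15 ± 0.25 (SE, edgeR adjusted p = 0.00845, 35 to 135 reads). The number of higher genes in this list was 3 without DB2313 replicate 2.

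**Figure D4:**
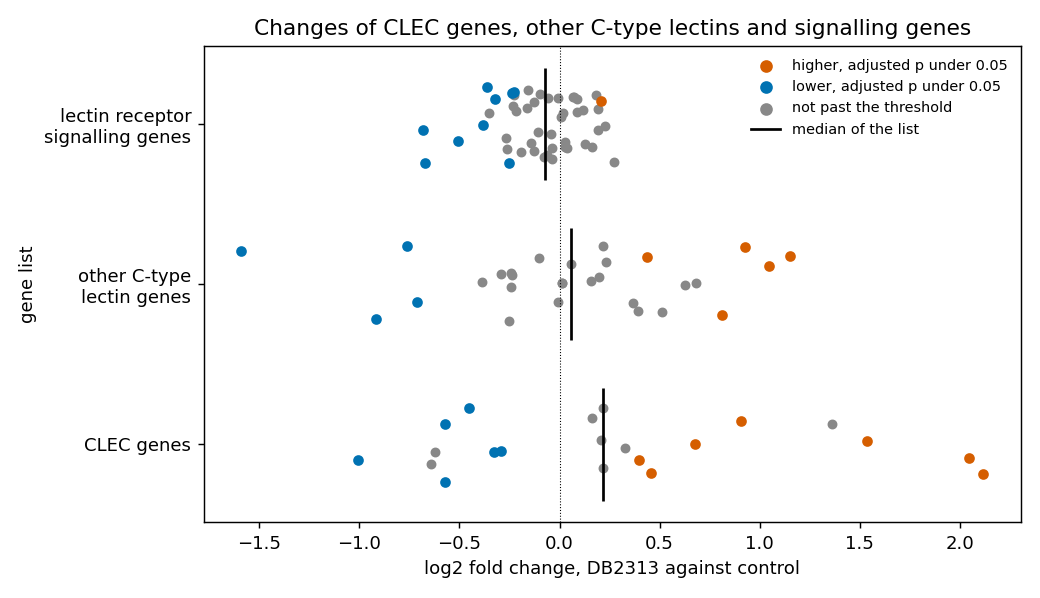
Log2 fold change (DB2313 against control) of each tested gene in 3 groups, CLEC genes, other C-type lectin genes and lectin receptor signalling genes, with a black line at the median of each group. Changed genes (orange higher, blue lower) lay further from 0 among the CLEC genes and other lectins than among the signalling genes, where 1 of 48 was higher.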

How the data were processed

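RNA-seq was done on 6 libraries of mouse dendritic cells. The authors deposited a table of raw counts, whole numbers of reads for each gene without normalisation, and a length for each gene in base pairs. The study's methods name LifeScope for alignment and counting, whereas the submitters' processing notes name CASAVA 1.8, HISAT2 2.0.5 and featureCounts 1.5.0-p3. The build, the strandedness and the treatment of reads with several matches were not given in the sources used here. Starts and ends equalled those of GENCODE M21 for 98.33% of 54409 identifiers, all 30 CLEC genes included, so that coordinates are given as GRCm38. Total counts of 16146743 to 19764677 per library set the precision.

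Columns were matched to samples by their number and name. Control columns carry an abbreviation of the cell type, and the others the name of Spi1, read here as the DB2313 libraries. All directions rest on that reading.

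The main test was edgeR 4.0.16 (R 4.3.3) with TMM scaling and filterByExpr. The model had 1 term, the group, and p-values were adjusted by Benjamini-Hochberg across the 14174 genes. SE is the absolute log2 fold change over the root of F. The method was tested on simulated data, in which genes changed 2-fold and libraries were independent. That test does not cover the CLEC changes under 2-fold. Alternatives used other scalings, filters and prior counts, DESeq2 1.42.0, limma-voom (limma 3.58.1), an offset for gene length, a replicate block and the omission of each library. Copies were searched with blastn 2.17.0 (95% identity, at least 100 bp) in GENCODE M21 transcripts. Promoter windows are from RefSeq, GRCm38.p6.

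The rule named every CLEC gene, with each library's value for changed genes and those of at least 20 CPM, and up to 6 changed genes of at least 10 CPM from each of the other 2 lists. A gene named by this rule is not reported here. Members and lists were chosen with earlier results of these data known. The motifs were chosen after the results were seen.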

Additional observations from a re-analysis of the deposited data

How the results depend on the processing

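The 7 higher CLEC genes were called in each of the 18 alternatives, whereas the number of lower ones was 4 with library totals or the replicate block, 5 with the length offset and block, and 6 in the other 9 alternatives that kept all libraries. When single libraries were omitted (6 fits), 7 to 8 CLEC genes were higher and 4 to 6 lower. The calls lost with all libraries kept were those of Clec16a (adjusted p 0.0532 with library totals, 0.0679 with the block, 0.0668 with offset and block) and Clec4a1 (0.0596 with library totals, 0.0543 with the block). Replicate numbers showed no pairing, with correlations of deviations of 0.0035, -0.024 and -0.12 for libraries of equal number. Under the replicate block, 11 CLEC genes (7 higher, 4 lower), 9 other C-type lectins (5 higher, 4 lower) and 5 signalling genes (0 higher, 5 lower) were called. The number of higher signalling genes was 2 with no filter, 2 with the length offset and 2 with offset and block, and it ranged from 0 to 5 when a library was omitted (5 without DB2313 replicate 1, 2 without DB2313 replicate 3, 0 otherwise), with 3 to 15 lower. Among the other lectins, 3 to 6 were higher and 3 to 5 lower in these fits. Leaving out a library lowers the number of samples by construction, and the cause of the other shifts was not tested. The log2 fold change turned its sign for Clec1a without DB2313 replicate 2 (range -0.096 to 0.645 over the omissions), for Syk with the length offset (0.023), with offset and block (0.023) and without DB2313 replicate 1 (range -0.081 to 0.018), and for Xcr1 without control replicate 2 (0.15) and DB2313 replicate 3 (0.0066, range -0.16 to 0.15), none of them called in any fit. Depth limits Clec4a4, Clec1a, Clec2g and Clec11a, with at most 40 reads per library, whose SEs (0.45 to 0.71) were the largest of the 21 genes.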

Other observations

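Clec7a, which encodes dectin-1, the receptor for fungal beta-glucans, was classed in the count table as a polymorphic pseudogene and so fell outside the protein-coding CLEC genes. It was nevertheless among the highest of all Clec rows, with 368, 348 and 342 CPM in the control libraries and 331, 316 and 364 CPM in the DB2313 libraries. Per length it stood at 134 CPM per kb in control and 128 with DB2313, between Clec4n and Clec4d. Its groups overlapped, and its log2 fold change of -0.066 ± 0.07 (SE) had an edgeR adjusted p of 0.649. Of the other Clec rows classed as pseudogenes, Clec2f had 1 to 17 reads per library, with overlapping groups, and Clec2j had none.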
